A study of Mus musculus with 24 samples.

Results

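The choroid plexus is the folded epithelium that hangs into the ventricles of the brain and secretes cerebrospinal fluid, and its cells carry *Ttr*, which encodes the thyroxine and retinol-binding-protein carrier transthyretin, as one of their most abundant mRNAs. The striatum borders the lateral ventricle, so a block of striatum cut by hand can bring along ventricular tissue, including choroid plexus and the ciliated ependymal cells that line the wall. A gene used as a choroid plexus marker need not be specific to it within the brain. *Enpp2* is also made by oligodendrocytes and *Kl* by neurons.

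The genes described here were 10 such markers, *Ttr*, *Clic6*, *Enpp2*, *Folr1*, *Kcne2*, *Kcnj13*, *Kl*, *Otx2*, *Sostdc1* and *Aqp1*, out of 24079 genes in the table of read counts, and all 10 had a row. They were chosen because *Ttr* had the lowest adjusted p of any gene between genotypes in heavy polysomal fractions of the nucleus accumbens (Acb), so that comparison is described for them without a test. The question put to the counts was whether a few of the 24 libraries carried the whole set together.

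The libraries came from rpS6 P-/- mice, knockin (KI) animals that carry ribosomal protein S6 without its phosphorylation sites throughout the body, and from wild-type (WT) littermates on the same mixed background (C57Bl/6/Sv129/ICR), both sexes, with no treatment named in the labels and no age given for these animals. In each genotype the Acb and the dorsal striatum (DS) were cut out, the tissue of several mice was pooled, and 3 replicates were made for each of the 8 groups of region, genotype and kind of RNA. Each region, genotype and replicate number has a whole lysate library (cytosolic RNA before the gradient) and a heavy polysomal library. The latter holds RNA carrying several ribosomes, taken as mRNA in active translation. The 24 libraries thus make 12 pairs. The methods describe a replicate as heavy polysomal fractions of more than 1 sample, so a pair need not come from a single lysate. Such a pair is called a lysate here, by region, genotype and number, as in Acb WT 1.

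Assigned reads ranged from 9280589 to 34703044 per library (median 16678553), from 11109431 to 34703044 in heavy polysomal fractions and from 9280589 to 20259509 in whole lysates. Because *Bc1*, a single non-coding RNA, held 15.2 to 26.1% of whole lysate reads against 0.897 to 3.85% in heavy polysomal fractions, levels are given in CPM, reads scaled to library totals that were themselves adjusted by the trimmed mean of M values over all 24 libraries. The floor of detection, taken as 3 reads in a library, came to 0.0776 to 0.367 CPM and covers counting error alone. Markers of medium spiny neurons, the projection neurons of the striatum, were abundant in both regions (8 of 9 listed symbols had a row, and summed levels were 3361 to 6093 CPM in the Acb and 3412 to 6373 CPM in the DS). The knockin changes single residues, and the genotype given for a library could therefore not be verified from reads per gene.

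Of the 10 genes, 6 averaged 10 or more reads per library. *Enpp2*, which encodes the lysophosphatidic acid-producing enzyme autotaxin, had 842 to 4160 reads in each library, and *Clic6*, of the chloride intracellular channel family, had 123 to 1533. *Kl*, which encodes the FGF co-receptor klotho, had 1 to 279 reads and was found in all 24 libraries. *Ttr* had reads in 20 libraries, *Sostdc1*, which encodes a secreted antagonist of BMP and Wnt signalling, in 20, and the homeodomain transcription factor gene *Otx2* in 15, with at most 800, 174 and 133 reads in a library.

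The other 4 genes were at or near 0. *Aqp1*, which encodes a water channel of the ventricular face of the epithelium, had 106 reads over all libraries and at most 14 in one. *Kcne2*, encoding a potassium channel subunit, had 81 reads in 6 libraries. *Kcnj13*, encoding the inward rectifier Kir7.1, had 48 reads in 8 libraries, and *Folr1*, the gene of the folate receptor alpha that carries folate into cerebrospinal fluid, had 36 reads in 6 libraries. These 4 averaged fewer than 10 reads per library.

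**Figure D1:**
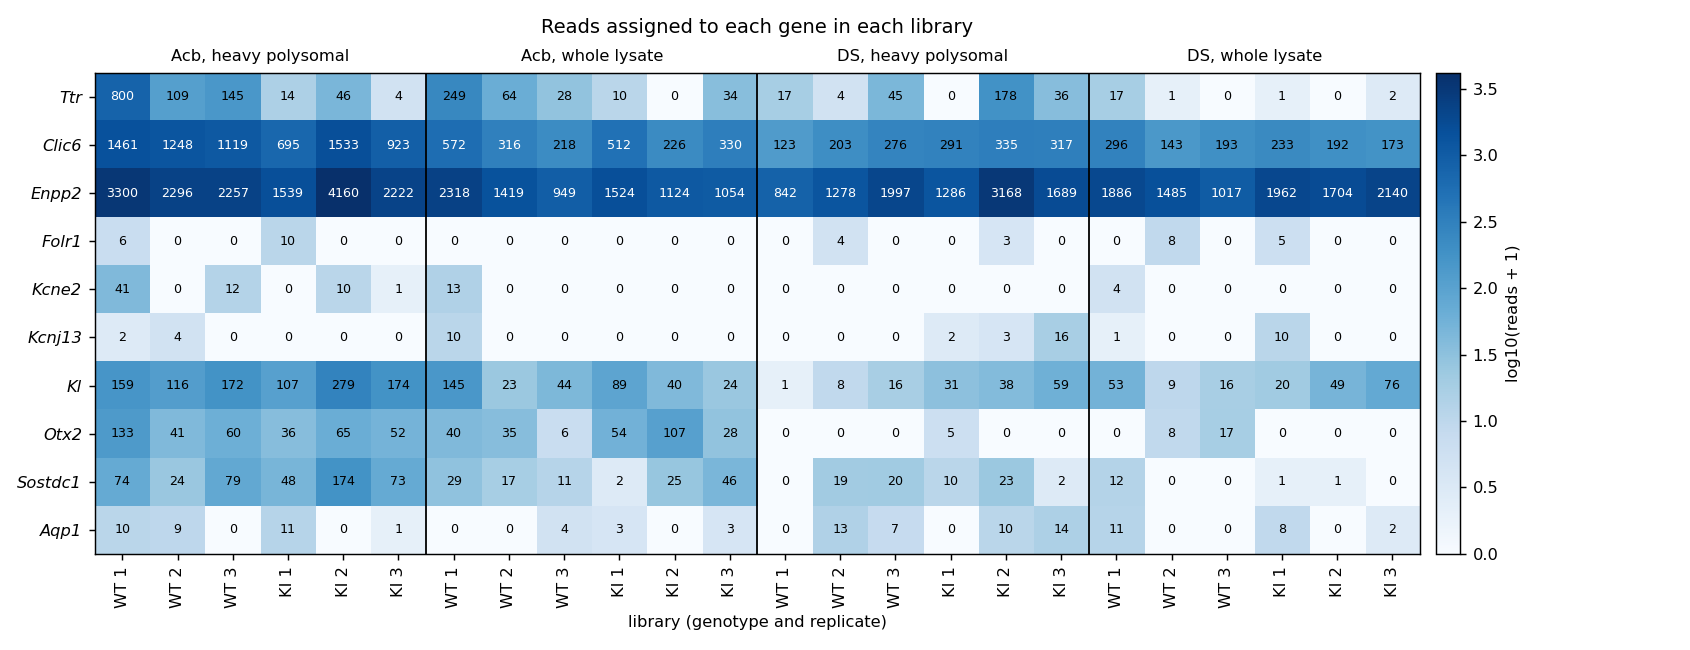
Reads assigned to each of the 10 genes (rows) in each of the 24 libraries (columns, grouped by region and kind of RNA, WT and KI replicates 1 to 3), with the count printed in each cell and colour on a log10(reads + 1) scale. Clic6, Enpp2 and Kl have reads in every library, Ttr is highest in Acb WT 1 (800 and 249 reads), and Folr1, Kcne2, Kcnj13 and Aqp1 are at 0 in 10 to 18 of the 24.

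Divided by the length of the merged exons, so that genes can be set beside each other, the mean level over all libraries was highest for *Enpp2* (17.8 CPM per kb) and then *Clic6* (6.52 CPM per kb), *Ttr* (2.56 CPM per kb), *Sostdc1* (0.785 CPM per kb), *Otx2* (0.407 CPM per kb) and *Kl* (0.397 CPM per kb). The lowest levels were those of *Aqp1* (0.0920 CPM per kb), *Kcnj13* (0.0782 CPM per kb), *Kcne2* (0.0647 CPM per kb) and *Folr1* (0.0360 CPM per kb). On this scale the level of *Enpp2* in whole lysates was 20.7 ± 1.17 CPM per kb in the Acb and 18.6 ± 2.50 CPM per kb in the DS (SD, n = 6 each), while that of *Ttr* was 3.77 ± 4.19 and 0.162 ± 0.299 CPM per kb. In these whole lysates the mean of *Ttr* lay below those of *Enpp2* and *Clic6* (7.88 ± 1.64 CPM per kb in the Acb and 3.35 ± 0.696 CPM per kb in the DS), and in the Acb its spread overlapped those of *Clic6*, *Sostdc1* (1.13 ± 0.894 CPM per kb) and *Otx2* (0.981 ± 0.923 CPM per kb).

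On GRCm38 (mm10) *Clic6* lies at chr16:92498147-92541241, *Enpp2* at chr15:54838901-54952789, *Kl* at chr5:150952607-150993817, *Otx2* at chr14:48656781-48667644 and *Sostdc1* at chr12:36314169-36318452. *Kcne2* lies at chr16:92292389-92298133, on the chromosome of *Clic6*, and the remaining genes are *Folr1* at chr7:101858331-101870788, *Kcnj13* at chr1:87384577-87394729 and *Aqp1* at chr6:55336299-55348555.

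*Kl* and *Otx2* were among the genes that separated the regions in heavy polysomal fractions, and the 250 bases before a start of each are printed as reference sequence (RefSeq, GRCm38.p6, 5′ to 3′ on the strand of the gene, CG pairs in capitals). The first is chr5:150952357-150952606 on the plus strand, and the second is chr14:48667645-48667894 on the minus strand.
Kl: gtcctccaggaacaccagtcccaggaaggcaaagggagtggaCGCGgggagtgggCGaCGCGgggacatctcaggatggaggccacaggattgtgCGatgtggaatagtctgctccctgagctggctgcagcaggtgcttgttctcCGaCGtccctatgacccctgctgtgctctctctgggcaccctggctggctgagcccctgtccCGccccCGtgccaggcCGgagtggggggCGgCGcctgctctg
Otx2: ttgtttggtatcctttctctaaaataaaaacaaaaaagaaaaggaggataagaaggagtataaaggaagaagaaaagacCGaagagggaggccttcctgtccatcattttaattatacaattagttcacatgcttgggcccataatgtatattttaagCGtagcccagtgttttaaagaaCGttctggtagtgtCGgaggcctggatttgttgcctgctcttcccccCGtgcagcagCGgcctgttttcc
The *Kl* window held 13 CG pairs, and 31.5% of 32851 promoter windows of this length held as many or more. The *Otx2* window held 6, reached by 50.4% of the windows (median 6). The letters TAATCC, the core motif bound by OTX-type homeodomain proteins, were on neither strand of either window, and 6.25% of all windows held them. Of the 10 genes, 5 had an entry in the promoter table, with 9 starts in all, and 1 of these starts held the motif.

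*Ttr* (chr18:20664209-20674326 on the same build) was spread widely between libraries of one group. In heavy polysomal fractions of the Acb its level was 20.7, 5.41 and 5.26 CPM in WT replicates 1, 2 and 3 (800, 109 and 145 reads) and 0.844, 1.20 and 0.201 CPM in the KI replicates (14, 46 and 4 reads). In whole lysates of the same tissue it was 13.8, 5.26 and 3.42 CPM in WT (249, 64 and 28 reads) and 0.812, 0 and 3.54 CPM in KI (10, 0 and 34 reads). Lysate Acb WT 1 was the highest in both kinds of RNA, and its 2 libraries held 1049 of the 1804 *Ttr* reads of the series (58.1%).

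In the DS the gene was mostly low. Heavy polysomal fractions of the DS had 1.58, 0.279 and 1.85 CPM in WT (17, 4 and 45 reads) and 0, 6.05 and 1.60 CPM in KI (0, 178 and 36 reads). Whole lysates of the DS had 0.910, 0.0684 and 0 CPM in WT (17, 1 and 0 reads) and 0.0592, 0 and 0.118 CPM in KI (1, 0 and 2 reads). The library DS KI 2 of heavy polysomal fractions stood above all other libraries of the DS, and its whole lysate partner had no read of the gene.

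**Figure D2:**
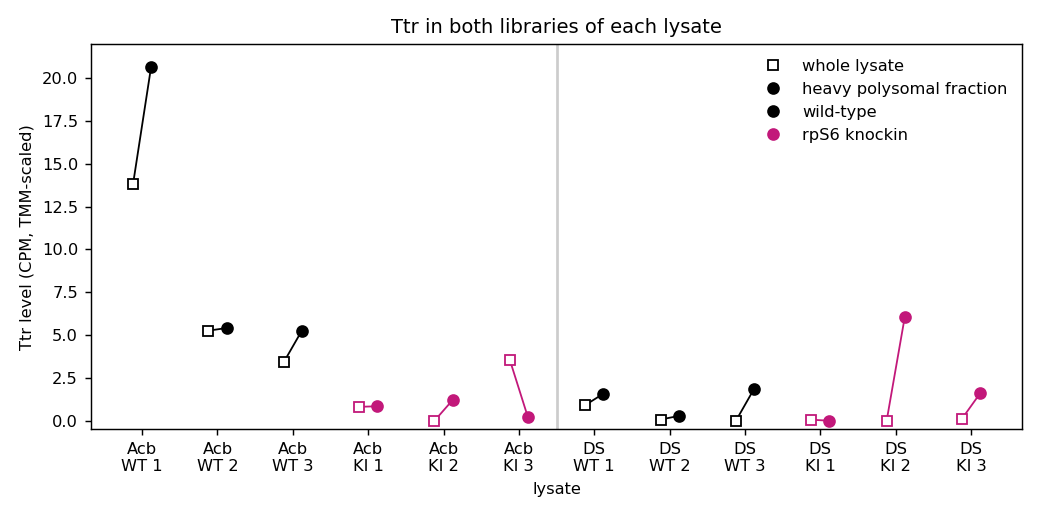
Level of Ttr (CPM on rescaled library totals) in the whole lysate (open square) and the heavy polysomal fraction (filled circle) of each of the 12 lysates, joined by a line, WT in black and KI in magenta. Acb WT 1 is highest in both (13.8 and 20.7 CPM), DS KI 2 is at 0 in the whole lysate and 6.05 CPM in heavy polysomes, and Acb KI 3 goes the other way (3.54 and 0.201 CPM).

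The paired libraries of a lysate did not always give a like level of *Ttr*. In the Acb WT lysates the heavy polysomal level was 1.50, 1.03 and 1.54 times the whole lysate level. In Acb KI 1 the ratio was 1.04, whereas in Acb KI 3 it was 0.0567, and Acb KI 2 had 46 reads in heavy polysomes and 0 in the whole lysate. In DS KI 2 the counts were 178 and 0.

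Levels of the other 9 genes followed *Ttr* in part. Ranked over the 24 libraries, the heavy polysomal library of Acb WT 1 was at rank 1 for *Ttr* and *Kcne2*, 3 for *Otx2* and 5 for *Folr1*. It ranked 7 for *Clic6*, 7 for *Sostdc1*, 8 for *Kcnj13*, 11 for *Kl*, 11 for *Aqp1* and 19 for *Enpp2*. Only *Kcne2* of the other 9 genes had its highest library there (41 reads, 1.06 CPM). The whole lysate library of Acb WT 1 ranked 1 for *Enpp2* (129 CPM), 2 for *Kcne2*, 2 for *Kl* and 3 for *Kcnj13*, and was thus among the 3 highest for 4 of the other 9 genes. It ranked 7 for *Otx2*, 8 for *Sostdc1* and 9 for *Clic6*. The heavy polysomal library of DS KI 2 was among the 3 highest for 0 of them.

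Lysates other than Acb WT 1 held the highest level of several genes. *Otx2* was highest in the whole lysate of Acb KI 2 (11.7 CPM, 107 reads), where *Ttr* had 0 reads. *Sostdc1* was highest in the whole lysate of Acb KI 3 (4.79 CPM), *Clic6* in heavy polysomes of Acb WT 2 (62.0 CPM) and *Kl* in heavy polysomes of Acb KI 3 (8.75 CPM), where *Ttr* had 4 reads. *Enpp2*, highest in the whole lysate of Acb WT 1, stayed within 74.9 to 129 CPM in all 24 libraries, a ratio of 1.72 between the highest and the lowest.

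The genes whose log2 CPM followed that of *Ttr* most closely over the 24 libraries were not choroid plexus markers. Among 14187 genes with at least 10 reads per library on average, the highest Pearson correlations were those of *Rgma* (0.816), *Chst2*, *Snx25*, *Slc35b2*, *Gm2a*, *Pon2*, *Syndig1*, *Gnai2*, *Sdf4* and *Carhsp1* (0.744). Of the other markers with that many reads *Sostdc1* came closest (r = 0.459, rank 1222), followed by *Clic6* (r = 0.430, rank 1475), *Otx2* (rank 4209), *Kl* (rank 4590) and *Enpp2* (r = -0.0264, rank 7962). *Folr1*, *Kcne2*, *Kcnj13* and *Aqp1* had fewer reads and were not ranked. Among them *Kcne2*, like *Ttr*, was highest in heavy polysomes and next highest in the whole lysate of Acb WT 1. These points share lysates, region, kind of RNA and depth, and over the 12 heavy polysomal libraries alone the closest other marker ranked 4638, over the 12 whole lysates alone 427 (*Clic6*, r = 0.681).

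**Figure D3:**
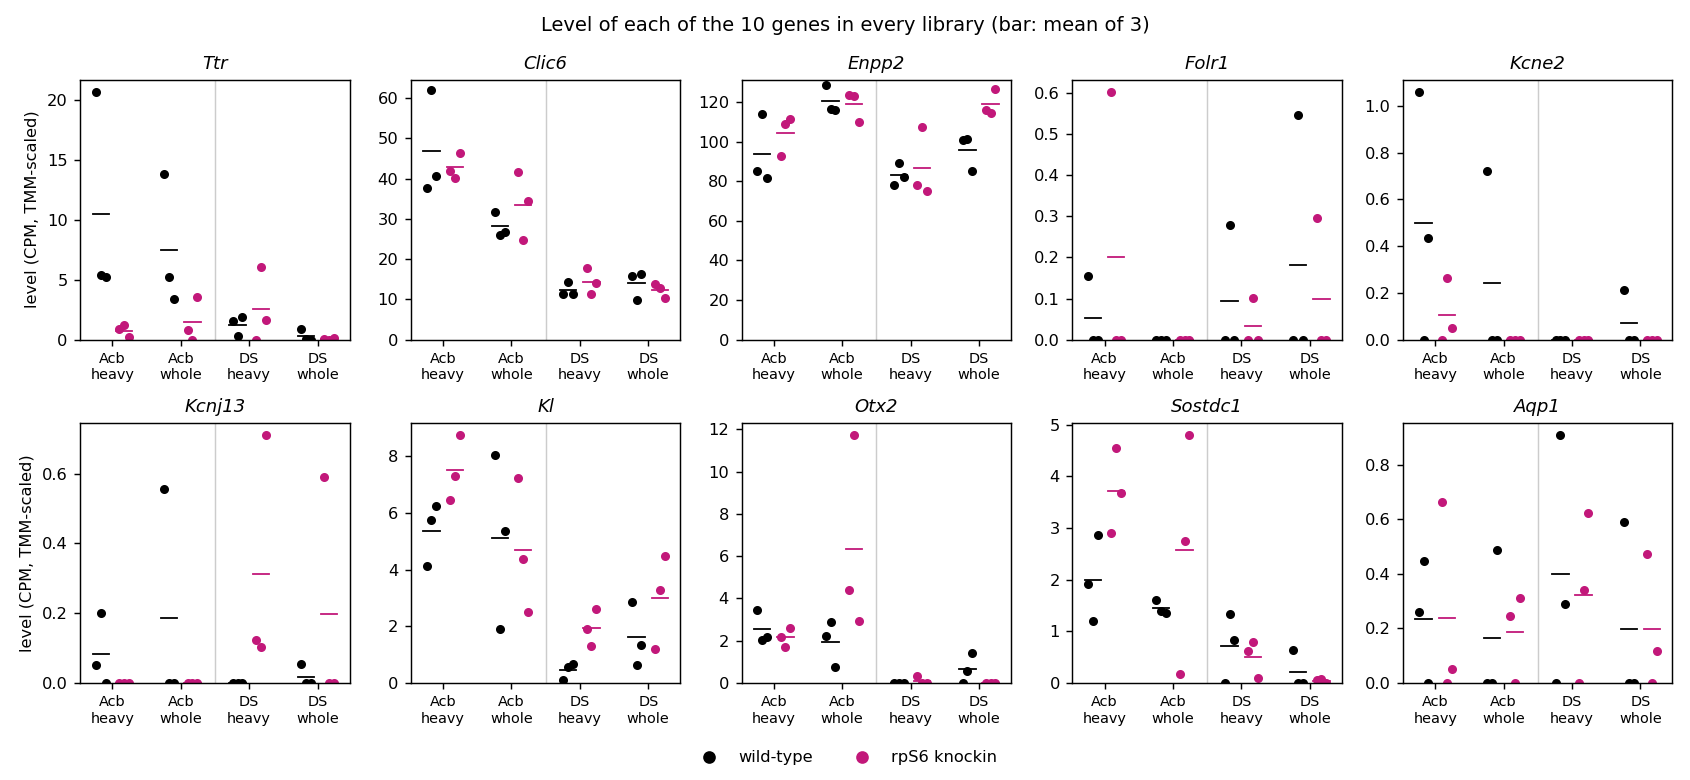
Level of each gene (CPM on rescaled library totals, own linear axis from 0 for each gene) in the 4 combinations of region and kind of RNA, with 1 point per library, WT in black, KI in magenta and a bar at the mean of 3. Clic6, Kl and Otx2 sit higher in all 6 heavy polysomal libraries of the Acb than in those of the DS, Enpp2 stays between 74.9 and 129 CPM, and Ttr is lower in the KI than in the WT libraries of Acb heavy polysomes.

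Between regions, several of the markers were higher in the Acb. In heavy polysomal fractions 5 of the 10 genes (*Clic6*, *Kl*, *Otx2*, *Sostdc1* and *Kcne2*) were higher in the Acb and 0 lower, where 9.44% of the 16880 genes tested were called higher in the Acb and 10.3% lower (edgeR's quasi-likelihood test with genotype as a covariate, Benjamini-Hochberg adjusted p under 0.05). In whole lysates 4 of the 9 genes tested (*Ttr*, *Clic6*, *Otx2* and *Sostdc1*) were higher and 0 lower, against 9.71% of 16364 genes called higher and 9.56% lower. Genes were tested if they had at least 15 reads summed over the libraries compared. In heavy polysomal fractions *Kcne2* and *Otx2* reached this only with their Acb reads (64 and 387, against 0 and 5 in the DS). *Sostdc1* did so in whole lysates (130 reads in the Acb and 14 in the DS). Such genes were tested because of the region where they were high, so their calls cannot be weighed against the shares of all genes. The median log2 difference, Acb over DS, was 1.28 over the 10 genes in heavy polysomal fractions (all genes tested, 0.017) and 1.23 over the 9 in whole lysates (all genes, 0.0095). In such bulk samples, fewer cells of a type and less RNA per cell cannot be told apart.

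*Clic6* separated the regions in both kinds of RNA. In heavy polysomal fractions of the Acb its level was 37.8, 62.0 and 40.6 CPM in WT and 41.9, 40.1 and 46.4 CPM in KI, and in those of the DS it was 11.4, 14.2 and 11.4 CPM in WT and 17.7, 11.4 and 14.1 CPM in KI. The regions did not overlap, as was the case in the higher direction for 4.76% of genes, and the log2 difference was 1.76 (SE 0.16, edgeR, adjusted p = 4.89e-08). In whole lysates it was 24.8 to 41.6 CPM in the Acb and 9.78 to 16.2 CPM in the DS, again without overlap (4.82% of genes), with a log2 difference of 1.23 (SE 0.18, edgeR, adjusted p = 1.77e-07). Both calls were kept when any single library was left out.

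*Kl* and *Otx2* did so in heavy polysomal fractions. *Kl* was at 4.11, 5.76 and 6.24 CPM in Acb WT and 6.45, 7.31 and 8.75 CPM in Acb KI, against 0.0928, 0.559 and 0.659 CPM in DS WT and 1.88, 1.29 and 2.62 CPM in DS KI (log2 difference 2.65, SE 0.39, edgeR, adjusted p = 3.53e-05, with 3.57 in WT and 1.95 in KI libraries alone). *Otx2* was at 3.44, 2.04 and 2.18 CPM in Acb WT and 2.17, 1.70 and 2.61 CPM in Acb KI, and had no read in 5 of the 6 DS libraries, with 0.304 CPM (5 reads) in DS KI 1 (log2 difference 5.64, SE 0.93, edgeR, adjusted p = 1.35e-04). Without DS KI 1 every DS library was at 0 for *Otx2* and the fitted difference, which then depends on the method, was 8.82 (edgeR, adjusted p = 2.13e-05).

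In whole lysates these genes were less even. *Kl* was at 8.05, 1.89 and 5.38 CPM in Acb WT and 7.22, 4.38 and 2.50 CPM in Acb KI, against 2.84, 0.615 and 1.34 CPM in DS WT and 1.18, 3.29 and 4.49 CPM in DS KI, so the regions overlapped (log2 difference 1.15, SE 0.48, edgeR, adjusted p = 0.0855). This p fell below the threshold without Acb WT 2 (0.0487), without Acb KI 3 (0.0378) and without DS KI 3 (0.0499, all edgeR adjusted p). *Otx2* was at 2.22, 2.88 and 0.733 CPM in Acb WT, 4.38, 11.7 and 2.92 CPM in Acb KI, 0, 0.547 and 1.43 CPM in DS WT and 0 in all 3 DS KI libraries (log2 difference 4.03, SE 1.004, edgeR, adjusted p = 0.00193). The difference in *Otx2* was called over both genotypes and in the KI libraries alone, whereas in WT libraries alone it was 1.58 (edgeR, adjusted p = 0.520). Leaving out single libraries kept the call and gave differences of 3.38 to 3.40 without DS KI 1, 2 or 3, 4.72 without Acb WT 1, 4.80 without Acb WT 3 and 5.12 without DS WT 3, while DESeq2's Wald test gave 5.03.

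*Sostdc1* had reads in all 12 Acb libraries. In heavy polysomal fractions it was at 1.91, 1.19 and 2.87 CPM in Acb WT and 2.90, 4.56 and 3.67 CPM in Acb KI, against 0, 1.33 and 0.824 CPM in DS WT and 0.608, 0.781 and 0.0887 CPM in DS KI, with 1 DS library above the lowest of the Acb (log2 difference 2.18, SE 0.63, edgeR, adjusted p = 0.0178). In whole lysates it was at 1.34 to 1.61 CPM in Acb WT, 0.162, 2.74 and 4.79 CPM in Acb KI, 0.642, 0 and 0 CPM in DS WT and at most 0.0671 CPM in DS KI (log2 difference 3.97, SE 1.21, edgeR, adjusted p = 0.0131). The call was lost in heavy polysomal fractions without Acb KI 2 (edgeR, adjusted p = 0.0547) and in whole lysates without Acb KI 3 (edgeR, adjusted p = 0.0530), while without DS WT 1 the difference in whole lysates was 6.03. In WT libraries alone *Sostdc1* was not called in either kind of RNA (edgeR, adjusted p = 0.435 and 0.362).

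*Ttr* differed between regions in whole lysates. In whole lysates the mean was 4.48 ± 4.97 CPM in the Acb and 0.193 ± 0.354 CPM in the DS (SD, n = 6 each), with 1 Acb library at 0 (log2 difference 4.39, SE 0.81, edgeR, adjusted p = 2.76e-05, and 5.60 without DS WT 1, which held 17 of the 21 DS reads). With lysates Acb WT 1 and DS KI 2 both left out, a choice made with the values known, the difference was 3.74 (edgeR, adjusted p = 0.0183). In heavy polysomal fractions the means were 5.60 ± 7.73 and 1.89 ± 2.17 CPM (log2 difference 0.70, SE 0.99, edgeR, adjusted p = 0.682). Within genotypes that difference was 3.11 in WT and -1.75 in KI, given as a description with no test. The heavy polysomal libraries of the Acb hold the contrast that chose the gene. The test over both genotypes therefore cannot decide whether *Ttr* differs between regions in heavy polysomal fractions.

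*Enpp2* did not pass the test between regions in either kind of RNA. Its level was 99.1 ± 14.2 CPM in the Acb and 85.1 ± 12.1 CPM in the DS in heavy polysomal fractions (log2 difference 0.23, SE 0.13, edgeR, adjusted p = 0.222) and 120 ± 6.77 against 107 ± 14.5 CPM in whole lysates (log2 difference 0.16, SE 0.09, edgeR, adjusted p = 0.233). For *Kcne2* all 6 heavy polysomal libraries of the DS were at 0 and 4 of the 6 of the Acb had reads (41, 12, 10 and 1), which made its mean of 0.301 ± 0.410 CPM at least 11.8-fold higher than the floor of 3 reads over the DS group (edgeR, adjusted p = 0.0439). That call was kept in 1 of the 12 fits that left out a library (edgeR, adjusted p from 0.0378 without Acb WT 2 to 0.1003 without Acb KI 2) and was lost with the replicate number as a block (edgeR, adjusted p = 0.135). *Folr1*, *Kcnj13* and *Aqp1* were not called between regions, and *Folr1* had too few reads to be tested in whole lysates.

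**Figure D4:**
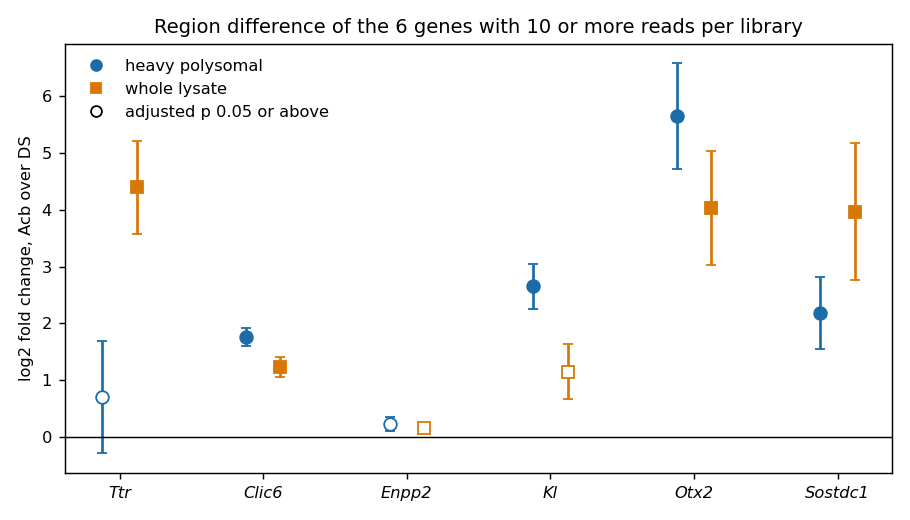
Log2 fold change of Acb over DS, with its standard error, for the 6 genes averaged at 10 or more reads per library, in heavy polysomal fractions (blue circles) and whole lysates (orange squares), 6 libraries per region in each. Open symbols have an adjusted p of 0.05 or above (Ttr and Enpp2 in heavy polysomal fractions, Enpp2 and Kl in whole lysates).

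Markers of neighbouring cell types moved between the regions as well. Of 12 ependyma genes, 8 were higher in the Acb in whole lysates and 5 in heavy polysomal fractions, and 0 were lower, where the same edgeR test called 9.71% of all genes higher and 9.56% lower in whole lysates and 9.44% and 10.3% in heavy polysomal fractions. Only 10 of the 12 genes passed the read filter on whole lysates of the DS alone. The others were tested between regions because of their Acb reads, so their calls cannot be weighed against the whole lysate share. In heavy polysomal fractions of the DS all 12 passed the filter. The shares of all genes given above also apply to the lists that follow. *Foxj1*, the regulator of motile cilia that defines these cells, was at 8.96 ± 3.77 CPM in whole lysates of the Acb and 4.32 ± 2.38 CPM in those of the DS (log2 difference 1.12, edgeR, adjusted p = 0.0186). The summed level of the 12 genes was 35.2 to 61.6 CPM in whole lysates of the Acb and 9.11 to 25.5 CPM in the DS, and 47.0 to 84.5 against 19.8 to 42.4 CPM in heavy polysomal fractions, without overlap in either. The 10 choroid plexus markers without the abundant *Enpp2* and *Clic6* summed to 11.4 to 27.0 CPM in whole lysates of the Acb and 1.78 to 5.25 CPM in the DS, and 13.6 to 31.7 against 1.67 to 8.66 CPM in heavy polysomal fractions. The part of ependyma in the levels of these markers was not tested.

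The ependyma sum did not single out Acb WT 1. In its whole lysate the sum was the lowest of the 6 Acb libraries (35.2 CPM), and in heavy polysomal fractions it was 79.8 CPM, with 62.0 and 84.5 CPM in the other WT replicates and 61.8, 60.5 and 47.0 CPM in KI. For cortical excitatory neurons all 6 genes were lower in the Acb in both kinds of RNA (481 to 767 CPM in sum against 2288 to 3209 CPM in whole lysates), and in heavy polysomal fractions of the Acb (650 to 1078 CPM, against 3449 to 7268 CPM in the DS) Acb WT 1 had the highest sum.

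Of 10 oligodendrocyte genes, 7 were higher in the Acb in whole lysates (3480 to 4732 CPM in sum, against 3061 to 3817 CPM in the DS), while in heavy polysomal fractions 2 were higher and 1 lower, near the shares of all genes (9.44% and 10.3%). Against 9.71% of all genes higher in whole lysates and 9.44% in heavy polysomal fractions, 4 of 6 astrocyte genes were higher in the former and 3 in the latter, and of 6 septum and thalamus genes 5 were higher in both. Of 8 medium spiny neuron genes 3 were higher and 4 lower in whole lysates (all genes, 9.71% and 9.56%). Genes of meninges and vascular fibroblasts (12.2 to 20.5 CPM in sum in whole lysates of the Acb, 7.28 to 20.7 CPM in the DS) and endothelial genes (6.60 to 21.9 and 4.79 to 13.4 CPM) did not pass the test between regions in either kind of RNA. The 5 haemoglobin rows of the red blood cell list were at 0 reads in every library, leaving *Alas2* alone, which was not called. Whether the authors' counting left these haemoglobin genes out is not known, so blood in the tissue cannot be judged from them.

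**Figure D5:**
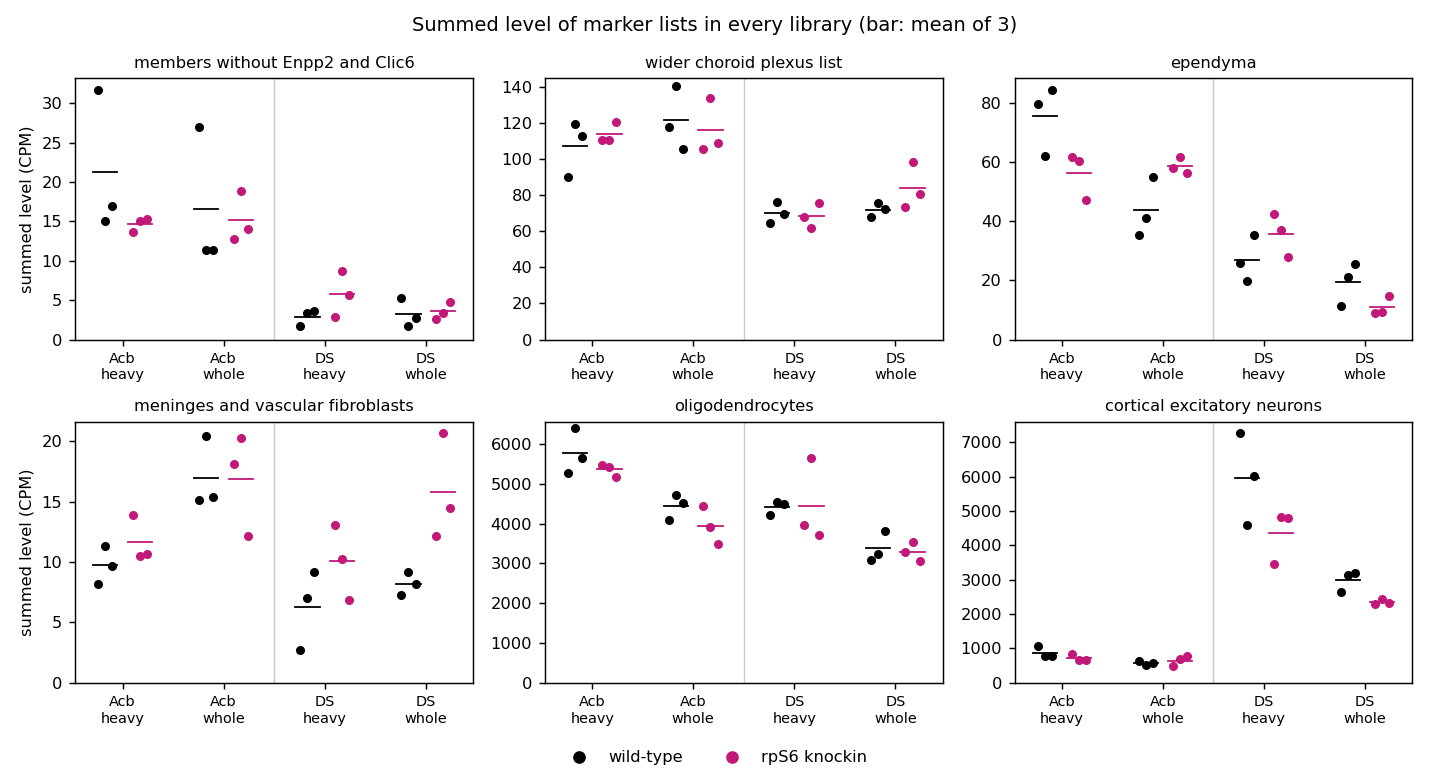
Summed level (CPM, own linear axis from 0 for each list) of 6 marker lists in every library by region and kind of RNA, WT in black, KI in magenta and a bar at the mean of 3. The ependyma list and the choroid plexus markers without Enpp2 and Clic6 are higher in every Acb library than in every DS library of the same kind of RNA, and the cortical list is lower.

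A wider list of 24 choroid plexus genes, which shared none of the 10, was also detected in part. All 24 had a row, 11 averaged at least 10 reads per library, and *Mfrp* had 0 reads in every library. In whole lysates 2 of the 18 genes tested were higher in the Acb and 0 lower, where 9.71% of all genes were called higher, and in heavy polysomal fractions 3 of 19 were higher, against 9.44% of all genes. On the DS libraries alone, 12 of the 18 and 14 of the 19 passed the read filter. The others were tested because of their Acb reads and cannot be weighed against these shares. The median log2 difference over the genes tested was 0.92 in whole lysates and 0.51 in heavy polysomal fractions (all genes, 0.0095 and 0.017). *Prlr*, which encodes the prolactin receptor, was at 8.77 ± 3.91 CPM in whole lysates of the Acb and 1.21 ± 0.477 CPM in those of the DS (SD, n = 6 each, log2 difference 2.87, edgeR, adjusted p = 1.38e-07). *Car12*, which encodes a membrane carbonic anhydrase, was at 66.2 ± 13.6 against 34.4 ± 6.58 CPM (log2 difference 0.95, edgeR, adjusted p = 4.11e-08). These were the 2 genes called in whole lysates, a count near the share of all genes. Of the others averaging at least 10 reads, *Calml4*, *1500015O10Rik* and *Rdh5* had higher mean levels in whole lysates of the Acb. There *Igf2* was level (31.0 ± 6.88 and 31.1 ± 5.47 CPM), and *Igfbp2*, *Slc13a4*, *Abca4*, *Col8a1* and *Msx1* had lower means than in the DS. In heavy polysomal fractions the sum of the wider list was lowest in Acb WT 1 among the Acb libraries (90.1 CPM, in a range of 90.1 to 120 CPM). In the whole lysate of Acb WT 1 it was 118 CPM (Acb, 105 to 141 CPM). *Car12* (67.0 ± 11.1 CPM in heavy polysomal fractions of the Acb) weighs heavily in this sum.

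Between genotypes, heavy polysomal fractions of the Acb are the comparison that chose the genes, and values are given for description. The *Ttr* levels of the 3 KI libraries (0.750 ± 0.508 CPM, SD, n = 3, from 0.201 to 1.20 CPM) lay below the 3 WT libraries (5.26 to 20.7 CPM), with a log2 fold change, KI over WT, of -3.73 that ranged from -4.36 to -2.76 when single libraries were left out. *Kl* and *Sostdc1* went the other way without overlap, at 4.11 to 6.24 CPM in WT and 6.45 to 8.75 CPM in KI for *Kl*, and at 1.19 to 2.87 and 2.90 to 4.56 CPM for *Sostdc1*. The ependyma sum was lower in KI without overlap in these libraries (62.0 to 84.5 CPM in WT and 47.0 to 61.8 CPM in KI). The median log2 fold change over the 12 genes was -0.52. In whole Acb lysates the same sum was higher in KI, again without overlap (35.2 to 55.1 CPM in WT and 56.2 to 61.6 CPM in KI). The median log2 fold change was 0.37 there. The part of ependyma in the levels of *Ttr* was not tested. In the heavy polysomal libraries genotypes did not overlap in the lower direction for 11.8% of the 16227 genes and in the higher direction for 13.2%. *Clic6* (log2 fold change -0.12), *Enpp2* (0.16) and *Otx2* (-0.25) had overlapping libraries. The rarer genes were counted in few reads there, with 53 in WT and 11 in KI for *Kcne2*, 6 and 10 for *Folr1*, 19 and 12 for *Aqp1*, and 6 and 0 for *Kcnj13*, which fell under the filter of 15 reads.

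In the other 3 genotype comparisons, 0 of the markers tested passed (0 of 6 in whole lysates of the Acb, 0 of 7 in heavy polysomal fractions and 0 of 6 in whole lysates of the DS), where edgeR called 0.00650%, 0.0440% and 0.122% of all genes. At an unadjusted p under 0.05 these were *Ttr* and *Otx2* in whole Acb lysates (2.96% of genes), 0 in DS heavy polysomes (6.42%) and *Enpp2* and *Otx2* in whole DS lysates (9.07%). In whole DS lysates *Otx2* was tested because of its WT reads (25, against 0 in KI), so it cannot be weighed against that share. DESeq2's Wald test called 0 of the markers in each comparison. In whole lysates of the Acb, *Ttr* had a log2 fold change of -2.38 (SE 0.74, edgeR, adjusted p = 0.9996, lower in 2 of 3 KI libraries than in every WT library). Without Acb KI 3, the KI whole lysate with the highest *Ttr* level (3.54 CPM), it was -4.08 (edgeR, adjusted p = 0.0370). These whole lysates are the numbered partners of the heavy polysomal libraries that chose *Ttr*. Its tests here may therefore depend on that choice. *Otx2* was higher in every KI than in every WT library there (2.92 to 11.7 against 0.733 to 2.88 CPM, where 3.71% of genes were higher without overlap).

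In heavy polysomal fractions of the DS the fold change of *Ttr* was 1.09 (SE 0.99, edgeR, adjusted p = 0.926) and changed sign without DS KI 2 (-0.58). *Kl* was higher in each of the 3 KI libraries than in WT, where 6.09% of genes were higher without overlap. *Kcnj13* had 2, 3 and 16 reads in KI and 0 in WT, so that it was tested because of the KI reads and only 1 library rose above the floor of 3 reads. In whole lysates of the DS, *Enpp2* was at 101, 102 and 85.5 CPM in WT and 116, 114 and 126 CPM in KI (log2 fold change 0.29, SE 0.12, edgeR, adjusted p = 0.413, and 6.52% of genes were higher without overlap). *Otx2* had 25 reads over 2 of the 3 WT libraries there and 0 in KI. The interaction of genotype and region in whole lysates was called for 0 of the 9 markers tested (edgeR, *Otx2* adjusted p = 0.325) and by DESeq2 for 0, where edgeR called 0.00611% of all genes. At an unadjusted p under 0.05 it held for *Otx2* and for 5.11% of all genes.

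Between kinds of RNA, few of the markers moved. In the Acb 1 of 10 was higher in heavy polysomal fractions than in whole lysates and 0 lower, where edgeR called 15.6% of 16687 genes higher and 14.3% lower. *Clic6* was that gene (44.8 ± 8.89 against 30.8 ± 6.43 CPM, SD, n = 6 each, log2 difference 0.54, SE 0.15, edgeR, adjusted p = 0.00716). *Enpp2* was at 99.1 ± 14.2 against 120 ± 6.77 CPM (log2 difference -0.28, SE 0.11, edgeR, adjusted p = 0.0675). It passed the threshold without Acb WT 2 (0.0346) and without Acb KI 3 of the heavy polysomal libraries (0.0294, both edgeR adjusted p). *Ttr* had a log2 difference of -0.10 (SE 0.51, edgeR, adjusted p = 0.915), in libraries that include those of the contrast that chose it.

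In the DS 1 of 9 markers was higher in heavy polysomal fractions and 1 lower, where 19.5% of 16544 genes were called higher and 17.5% lower. *Enpp2* was the lower one, at 85.1 ± 12.1 against 107 ± 14.5 CPM (log2 difference -0.35, SE 0.11, edgeR, adjusted p = 0.00969), and *Clic6* was at 13.3 ± 2.51 and 13.1 ± 2.72 CPM (log2 difference 0.01, edgeR, adjusted p = 0.988). *Ttr* was higher in heavy polysomal fractions, at 1.89 ± 2.17 against 0.193 ± 0.354 CPM (log2 difference 3.34, SE 1.13, edgeR, adjusted p = 0.0156), with 280 reads in the former and 21 in the latter. Of these 280 reads, 178 came from DS KI 2, and without that library the difference was 2.56 (edgeR, adjusted p = 0.126). Without the whole lysate library of DS WT 1 it was 5.10 (edgeR, adjusted p = 8.86e-04).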

How the data were processed

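The authors aligned single 50-base reads of poly-A libraries to mm10 (GRCm38) with TopHat2 2.0.13 and Bowtie2 2.2.3, discarded alignments with more than 3 mismatches, and counted reads per gene on the opposite strand with HTSeq 0.6.1p1. They deposited these raw counts without normalization, and reads were not aligned again. Sequencing was spread over several runs, which the paper puts down to contamination by *E. coli* sequences. Libraries were not assigned to runs in the labels.

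Each comparison was fitted on its own libraries with edgeR 4.0.16 in R 4.3.3 (TMM, glmQLFit and glmQLFTest), after removing genes with fewer than 15 reads summed over those libraries, with Benjamini-Hochberg adjustment over all genes tested (threshold 0.05). Levels were CPM on TMM-scaled totals of all 24 libraries. Likeness to *Ttr* was Pearson's r of log2 CPM (prior count 2). Exon lengths were from GENCODE M21. DESeq2 1.42.0 was an alternative, and plots were drawn with matplotlib 3.10.9. Scripts were tested on simulated data.

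All 10 markers are named, with the 10 genes most like *Ttr*, the genes of the wider list that averaged 10 reads per library, and the defining gene of a list. The markers and lists were chosen with earlier results of these data known. Heavy polysomal and whole lysate libraries were paired by region, genotype and replicate number (12 pairs, called lysates here). Residuals within these pairs correlated at -0.0422 to 0.0782, 0 of 12 above 0.1. Replicates pool several mice, so p-values measure the spread between pools.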

Additional observations from a re-analysis of the deposited data

How the results depend on the processing

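Alternatives were DESeq2's size factors, no filter beyond 1 read, filterByExpr, DESeq2's Wald test, the replicate block and leaving out each library, with WT or KI libraries alone and lysates Acb WT 1 or DS KI 2 left out added after seeing the data. *Folr1*, *Kcne2*, *Kcnj13* and *Aqp1* had at most 41 reads in a library, so differences in them were hardly detectable at this depth. Counts of markers called moved to 2 of the Acb fraction comparison under DESeq2's size factors, filterByExpr and DESeq2's Wald test (*Enpp2* joining), to 2 between regions in whole lysates of WT libraries alone, and to 1 between fractions of the DS without both libraries of DS KI 2 (*Ttr* log2 difference 2.28). The cause was not tested. Leaving out single libraries gave 0 to 1 markers called between genotypes in whole Acb lysates, 3 to 5 between regions in heavy polysomal fractions (3 without Acb KI 2), 4 to 5 in whole lysates, and 1 to 2 between fractions in the Acb and in the DS.

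Signs changed for differences that were not called over all libraries. *Ttr* between regions in heavy polysomal fractions was -1.75 in KI libraries alone, and *Enpp2* in whole lysates was -0.011. *Clic6* between fractions of the DS was -0.011 with DESeq2's size factors and with its Wald test, and -0.090 to 0.079 when single libraries were left out, where *Ttr* between fractions of the Acb ranged from -0.71 to 0.56 and *Ttr* between genotypes in DS heavy polysomes from -0.58 to 1.67.

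Pairing by the replicate block gave 4 markers called between regions in heavy polysomal fractions in place of 5, and *Ttr* of 0.11 between fractions of the Acb and -0.072 between genotypes in DS heavy polysomes. With lysates as the block, *Ttr* between fractions of the DS was 3.13 (edgeR, adjusted p = 0.0440). Residuals of libraries with the same replicate number correlated at -0.112 to 0.173 between genotypes (1 of 12 above 0.1) and -0.149 to 0.107 between regions (1 of 12). The 12 pairs of whole lysate and heavy polysomal libraries gave no higher values (-0.0422 to 0.0782, 0 of 12). The check therefore cannot decide whether replicate numbers pair genotypes or regions. For the Acb heavy polysomes, the comparison that chose the genes, the block called 98 of all genes in place of 0. The log2 fold change of *Ttr* there was -3.60, given as a description with no test. In the comparisons where markers were tested, the block changed no other call of a marker. Of the values of single genes, 337 kept their direction and side of the threshold, 24 fell short of it, 10 newly passed it, 17 changed sign and 2 ranks moved. Over all genes, the number called between genotypes depended more on the setting. It ran from 0 in the main edgeR fit to 1090 (DESeq2's Wald test) in heavy polysomal fractions of the Acb. In whole Acb lysates it ran from 0 (filterByExpr) to 5 (block), against 1 in the main fit. In DS heavy polysomes it ran from 1 (filterByExpr) to 37 (no filter), against 7, and in whole DS lysates from 2 (filterByExpr) to 95 (DESeq2), against 19.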
